A study of Mus musculus with 32 samples.

Results

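The 10 genes described here are the core of the mammalian circadian clock and its best known output gene: the repressors Per1, Per2, Per3, Cry1 and Cry2, the nuclear receptor genes Nr1d1 and Nr1d2, the output factor gene Dbp, and the activators Arntl and Clock. They were chosen by symbol. All 10 have a row among the 51267 of the total RNA table, and all 10 were among the 17173 features kept by the filter on low counts. The total RNA libraries came from hippocampal neurons of newborn mice, cultured for 16 days and then treated for 30 minutes. The treatments were 50 µM forskolin (FSK, 6 libraries), 30 µM DHPG (6 libraries) and an equal volume of DMSO, the vehicle control (4 libraries). Forskolin stimulates adenylyl cyclase, the enzyme that makes cAMP, and DHPG stimulates group I metabotropic glutamate receptors. The strain of the mice is not given in the sources used here, nor is the time of day of treatment or whether replicates are separate cultures, so p-values measure the spread between libraries, which may be technical. The comparisons ask which transcripts follow a short rise of cAMP or activation of these receptors, here for the clock.

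The clock is a transcriptional loop. ARNTL (also called BMAL1) and CLOCK form a dimer that binds E-box sequences and drives the Per and Cry genes, the Nr1d genes and Dbp; PER and CRY proteins then repress that dimer. REV-ERB alpha and beta, the products of Nr1d1 and Nr1d2, repress Arntl, and ROR receptors activate it through the same elements. Per1 is also known as an immediate-early gene: in the suprachiasmatic nucleus, the master clock of the brain, it is induced by light through cAMP-responsive elements and CREB. In cells with running clocks Arntl peaks when Dbp and Per3 are low.

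Promoters are where CREB and clock factors are known to bind, and 5 windows of members are printed because they hold, or in 1 case lack, the letters searched for. RefSeq promoter sequence (GRCm38.p6) was matched for 9 of the 10 members, 13 windows in all; Per2 is named only. Each window is the 250 bases before a transcription start, 5′ to 3′ on the gene's strand. Capitals mark the CRE core (TGACG), the E-box (CACGTG), the D-box (TTATGTAA or TTACGTAA), to which DBP and its relatives bind, and the ROR core (AGGTCA), read on both strands. The first 2 are the windows of the 2 Per1 starts, at chr11:69098699-69098948 and chr11:69099902-69100151, both on the plus strand. The others are Per3 at chr4:151044666-151044915, Nr1d2 at chr14:18239107-18239356 and Nr1d1 at chr11:98775378-98775627, all on the minus strand.
Per1 upstream start: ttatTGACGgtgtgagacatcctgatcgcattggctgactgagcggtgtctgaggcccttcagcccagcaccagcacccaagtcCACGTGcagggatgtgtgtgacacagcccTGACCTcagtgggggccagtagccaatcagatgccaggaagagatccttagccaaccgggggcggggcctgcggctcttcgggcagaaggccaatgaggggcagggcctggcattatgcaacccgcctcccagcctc
Per1 downstream start: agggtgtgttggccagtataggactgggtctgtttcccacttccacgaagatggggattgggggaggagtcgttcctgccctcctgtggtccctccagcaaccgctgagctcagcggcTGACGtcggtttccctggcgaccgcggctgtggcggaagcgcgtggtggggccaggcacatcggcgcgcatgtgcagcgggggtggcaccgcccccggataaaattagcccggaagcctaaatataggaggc
Per3: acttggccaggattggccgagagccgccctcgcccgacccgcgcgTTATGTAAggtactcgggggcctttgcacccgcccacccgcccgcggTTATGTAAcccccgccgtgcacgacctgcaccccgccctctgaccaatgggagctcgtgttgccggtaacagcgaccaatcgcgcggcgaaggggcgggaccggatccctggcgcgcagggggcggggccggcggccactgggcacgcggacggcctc
Nr1d2: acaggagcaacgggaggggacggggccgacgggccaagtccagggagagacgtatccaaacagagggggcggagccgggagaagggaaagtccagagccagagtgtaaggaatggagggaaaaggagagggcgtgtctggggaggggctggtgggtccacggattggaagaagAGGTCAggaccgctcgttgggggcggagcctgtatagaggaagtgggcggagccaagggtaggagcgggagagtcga
Nr1d1: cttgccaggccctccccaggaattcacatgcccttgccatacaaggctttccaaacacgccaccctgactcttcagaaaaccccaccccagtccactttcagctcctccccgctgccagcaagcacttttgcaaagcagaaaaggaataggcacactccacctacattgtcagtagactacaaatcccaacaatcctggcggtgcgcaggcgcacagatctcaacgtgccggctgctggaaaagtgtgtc

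Per1 held a CRE core in both windows, 246 bases before its upstream start and 132 bases before its downstream start, and an E-box 166 bases before the upstream one. Cry1 held a CRE core 8 bases and an E-box 60 bases before its start, and Cry2 a CRE core at 209 bases. Per3 held the D-box at 205 and at 158 bases, and Nr1d2 the ROR core at 77 bases. A ROR core also lay in the upstream Per1 window (137 bases) and in the third of the Clock windows (119 bases). The windows of Nr1d1, Dbp and Arntl held none of these letters. Among all 32851 promoter windows provided, 17.8% held the CRE core, 6.02% the E-box, 0.931% the D-box and 14.0% the ROR core, while the full palindrome TGACGTCA was in 1.55% of them and in no window of a member. A match is a description of the letters and shows no binding.

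By depth there were 2 sets of libraries, which the labels do not name. The 7 deep libraries were FSK 4 to 6, DHPG 6 and DMSO 2 to 4, at 38409918 to 59958600 counts, of which mitochondrial rRNA took 10.8 to 27.7%. The 9 shallow libraries were FSK 1 to 3, DHPG 1 to 5 and DMSO 1, at 20677117 to 24892959 counts, of which it took 1.47 to 2.92%. DHPG and DMSO lie mostly in different sets, so values with a term for the set, or within each set, stand beside the main ones where they differ. Markers of excitatory neurons were detected in all libraries, at a summed 947 to 1380 CPM in FSK, 1180 to 1900 CPM in DHPG and 1440 to 1820 CPM in DMSO. Markers of astrocytes were also abundant (2540 to 6740 CPM over all libraries), and those of microglia ranged most, from 7.7 to 279 CPM in FSK, 9.38 to 29.8 CPM in DHPG and 5.72 to 18.9 CPM in DMSO. The cultures were therefore mixed, and in such bulk samples fewer cells of a type and less RNA per cell cannot be told apart. Levels below are CPM, counts relative to a library size adjusted by TMM factors, which are not comparable between genes of different length.

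With forskolin against DMSO, no member passed at adjusted p under 0.05 in edgeR's quasi-likelihood test, and 2 of 10, Nr1d2 and Nr1d1, had unadjusted p under 0.05. Of all features tested 0.809% passed, 0.349% higher and 0.46% lower, and 21.3% had unadjusted p under 0.05. Of the features that passed 43.2% were higher, and 79.0% were with library totals in place of TMM factors. The median log2 fold change of the 10 was -0.08, with 4 positive and 6 negative, beside 0.02 for all features. The DESeq2 Wald test called 1 member, Nr1d2 (8.11% of all features), and limma-voom 4, Nr1d2 higher and Nr1d1, Per2 and Arntl lower (35.2% of all features). No member had FSK and DMSO groups that did not overlap, against 3.62% of features higher and 4.36% lower in that sense.

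**Figure D1:**
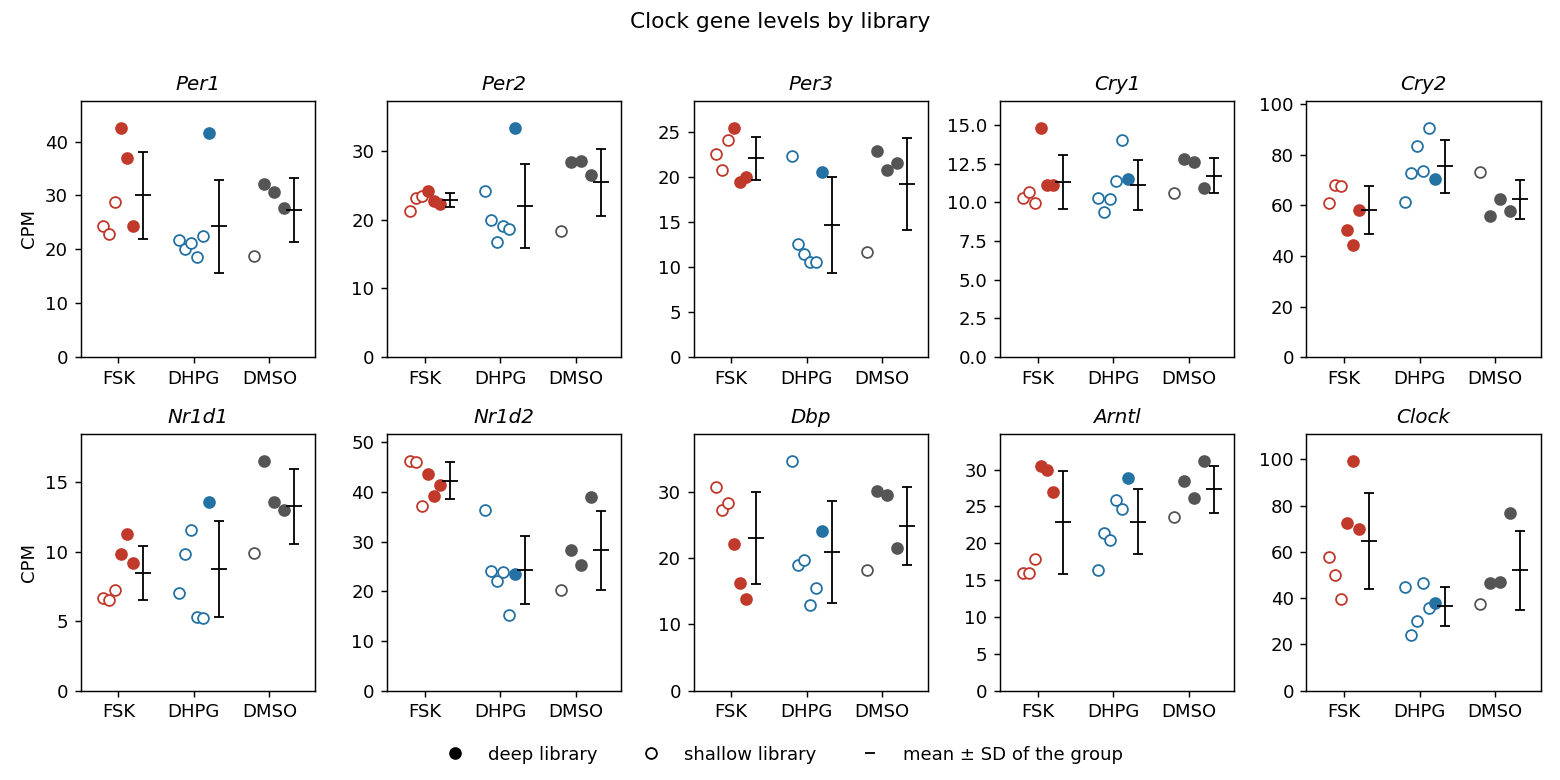
Level of each clock gene (CPM, linear axes from 0) in the 6 FSK, 6 DHPG and 4 DMSO libraries; each point is a library, filled for the deep and open for the shallow set, and bars give the mean ± SD of the group. Nr1d2 lies between 37.1 and 46.1 CPM in FSK, against 15.3 to 36.4 CPM in DHPG and 20.3 to 38.9 CPM in DMSO, while Arntl, Dbp and Per3 split within groups.

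The pair of REV-ERB genes had the smallest p-values of the 10, in opposite directions. Nr1d2, which encodes REV-ERB beta, had 37.1 CPM at the lowest, 42.5 CPM at the median and 46.1 CPM at the highest in FSK, against 20.3, 28.3, 25.3 and 38.9 CPM in DMSO 1 to 4. Of the FSK libraries 5 stood above every DMSO library, and FSK 3 lay just below DMSO 4. The log2 fold change was 0.58 ± 0.20 (95% interval 0.16 to 1.0, adjusted p = 0.12), and 0.61 with the library-set term (adjusted p = 0.063). Within the deep libraries it was 0.42, and against the lone shallow DMSO library 1.08. In the authors' deposited table Nr1d2 passed, at a log2 fold change of 0.57 with adjusted p = 0.021, in a table where 8% of the features with an adjusted p passed.

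Nr1d1, which encodes REV-ERB alpha, had 6.52, 8.24 and 11.3 CPM (lowest, median, highest) in FSK, against 9.94, 16.5, 13.6 and 13 CPM in DMSO 1 to 4. Of the FSK libraries 5 stood below every DMSO library. The log2 fold change was -0.65 ± 0.26 (95% interval -1.20 to -0.10, adjusted p = 0.17). It was -0.50 with the library-set term, -0.51 within the deep and -0.54 within the shallow libraries. In the authors' deposited table it passed as well (-0.66, adjusted p = 0.027). The RefSeq ranges of Nr1d1 and Thra, the thyroid hormone receptor alpha gene, share 1075 bases. Thra itself was lower, at 461 ± 32.8 CPM in FSK and 658 ± 25.6 CPM in DMSO (SD, n = 6 and 4; log2 fold change -0.51 ± 0.10, edgeR adjusted p = 0.034). Whether the counting kept their reads apart is not given in the sources used here, so the Nr1d1 value is uncertain and the part of Thra in it was not tested.

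Because their differences had opposite signs, the ratio of Nr1d2 to Nr1d1 counts separated FSK from DMSO libraries, which neither gene did alone. It was 6.92, 7.06, 5.10, 4.44, 3.47 and 4.49 in FSK 1 to 6, against 2.04, 1.72, 1.86 and 2.98 in DMSO 1 to 4. In DHPG 1 to 6 it was 5.15, 2.44, 1.90, 4.48, 2.92 and 1.73. All FSK ratios lay above all DMSO ratios, and DHPG 1 and DHPG 4 reached into the FSK range. This ratio was picked after the values were seen and carries no test.

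**Figure D2:**
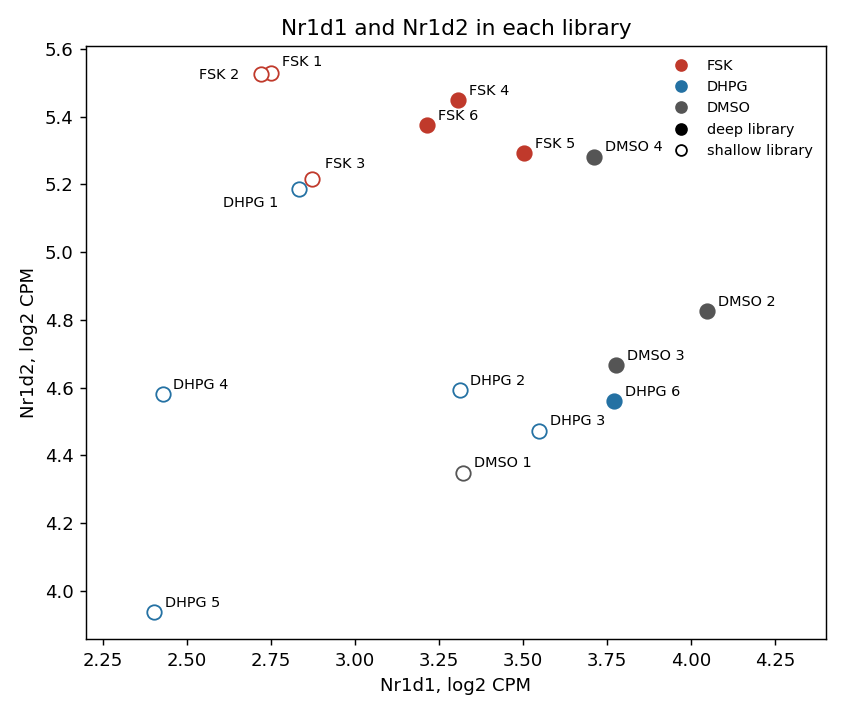
Nr1d1 against Nr1d2 in each library (log2 CPM on both axes), coloured by treatment, filled for deep and open for shallow libraries. FSK libraries lie toward the upper left with DHPG 1 beside FSK 3, DMSO 2 to 4 lie at the right, DMSO 1 lies lower among DHPG 2 and 3, and DHPG 5 is lowest in both genes.

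Per1, the repressor gene with the CRE cores shown above, was not detectably raised at 30 minutes. It had 22.9, 26.6 and 42.5 CPM (lowest, median, highest) in FSK, against 18.8, 32.1, 30.7 and 27.6 CPM in DMSO 1 to 4, so the groups overlapped almost fully. The log2 fold change was 0.14 ± 0.24, with a 95% interval of -0.37 to 0.64. With the library-set term it was 0.31 ± 0.15 (95% interval 0.01 to 0.62, adjusted p = 0.14). Within the shallow set FSK 1 to 3 had 24.4, 22.9 and 28.8 CPM, against 18.8 CPM in DMSO 1. Within the deep set FSK 4 to 6 had 42.5, 37.0 and 24.4 CPM, against 32.1, 30.7 and 27.6 CPM in DMSO 2 to 4; FSK 6 was below all of these. Leaving out DMSO 1 took the fold change to 0.00.

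Its paralogs Per2 and Per3, which likewise bind CRY proteins, did not pass either. Per2 was the most even member in FSK, with 21.2 to 24.1 CPM, against 18.3 CPM in DMSO 1 and 26.5 to 28.5 CPM in DMSO 2 to 4 (log2 fold change -0.16 ± 0.17). Per3 had 19.4 to 25.4 CPM in FSK, against 11.7 CPM in DMSO 1 and 20.8 to 22.9 CPM in DMSO 2 to 4 (0.19 ± 0.23). For both, the FSK levels stood above the shallow DMSO library. Those of FSK 4 to 6 stood below the deep ones for Per2. For Per3, FSK 4 (25.4 CPM) stood above the deep ones, and FSK 5 and FSK 6 stood below them. Within-set log2 fold changes were -0.27 in the deep and 0.30 in the shallow set for Per2, and -0.01 and 0.95 for Per3. The difference between sets did not pass for either (edgeR adjusted p = 0.57 for Per2 and 0.68 for Per3).

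The cryptochrome genes Cry1 and Cry2, whose products are the main repressors of the ARNTL and CLOCK dimer, had the fold changes closest to 0. Cry1 had 9.94, 10.9 and 14.8 CPM (lowest, median, highest) in FSK, against 10.6 to 12.8 CPM in DMSO, a log2 fold change of -0.05 ± 0.13 with a 95% interval of -0.34 to 0.23. Cry2 had 44.2, 59.6 and 68.2 CPM in FSK, against 56.0 to 73.3 CPM in DMSO (-0.10 ± 0.13, 95% interval -0.39 to 0.19). These are the narrowest intervals of the 10. In this pooled fit both exclude a doubling or a halving. So do those of all other members except Nr1d1 and Nr1d2, whose intervals reach -1.20 and 1.0. Within the sets this was not shown. There Per3 was at 0.95 in the shallow libraries, with DMSO 1 alone for DMSO, and Dbp at 0.66 in the shallow and -0.64 in the deep ones.

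Dbp, a PAR bZIP transcription factor and direct E-box target, was spread more widely within FSK than between FSK and DMSO. FSK 1 to 3 had 30.8, 27.3 and 28.3 CPM and FSK 4 to 6 had 22.1, 16.2 and 13.8 CPM, against 18.2 CPM in DMSO 1 and 30.1, 29.6 and 21.6 CPM in DMSO 2 to 4. The pooled log2 fold change was -0.11 ± 0.27, but it was 0.66 within the shallow and -0.64 within the deep libraries, a difference of -1.31 ± 0.52 (adjusted p = 0.64). FSK thus lay above DMSO in one set and mostly below it in the other.

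Arntl, the bHLH-PAS partner of CLOCK, ran the other way. FSK 1 to 3 had 15.9, 15.9 and 17.8 CPM and FSK 4 to 6 had 30.5, 29.9 and 27.0 CPM, against 23.5 CPM in DMSO 1 and 28.5, 26.1 and 31.1 CPM in DMSO 2 to 4. The log2 fold change was -0.25 ± 0.20 pooled, -0.51 within the shallow and 0.03 within the deep libraries. Clock had 39.8, 63.8 and 99.1 CPM (lowest, median, highest) in FSK, against 37.6, 46.6, 47.2 and 76.9 CPM in DMSO 1 to 4 (0.32 ± 0.25). FSK 5, at 99.1 CPM, was the highest library for this gene, and without it the fold change was 0.15. Without the set term every interval in this comparison other than those of Nr1d1 and Nr1d2 included 0.

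**Figure D3:**
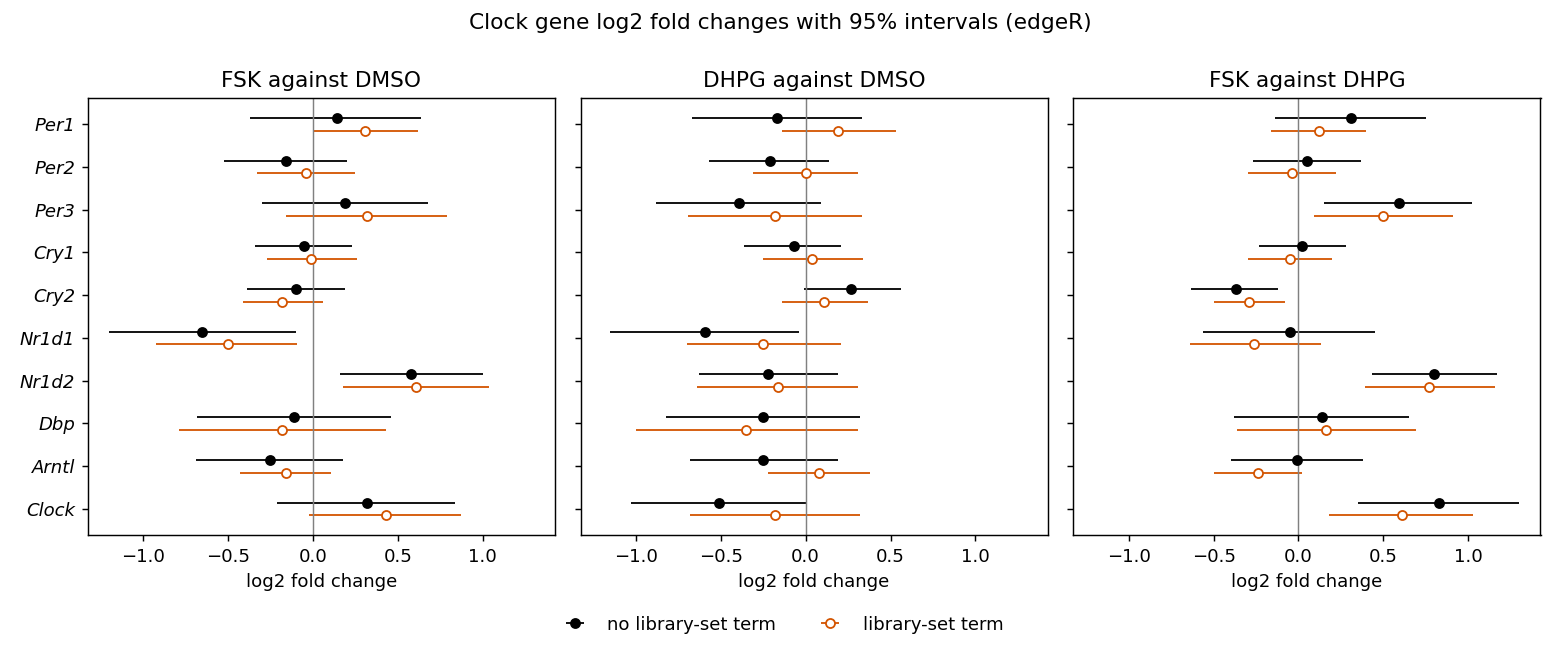
Log2 fold change of each clock gene (x axis) in the 3 comparisons, from edgeR, without (filled) and with (open) a term for the library set; bars are 95% intervals and the grey line marks no change. Nr1d2 is at 0.58 for FSK against DMSO and 0.80 for FSK against DHPG, and Nr1d1 at -0.65 and -0.59 against DMSO for FSK and DHPG.

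With DHPG against DMSO, again no member passed in edgeR, and 1 of 10, Nr1d1, had unadjusted p under 0.05, beside 12.4% of all features; 0.00582% of features passed. DESeq2 called no member (0.0408% of all features) and limma-voom 6 (34.7%), of which Cry2 was higher and Per1, Per2, Per3, Nr1d1 and Clock lower. In edgeR 9 of the 10 log2 fold changes were negative, with a median of -0.23 beside -0.01 for all features, and with the library-set term 6 were negative, with a median of -0.08. Of the DHPG libraries 5 were shallow, and in this set 1 DMSO library was all there was to set them against.

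Nr1d1 had 5.22, 8.46 and 13.6 CPM (lowest, median, highest) in DHPG, against 9.94 to 16.5 CPM in DMSO, a log2 fold change of -0.59 ± 0.26 (adjusted p = 0.40) and -0.25 with the library-set term. Nr1d2 had 15.3, 23.7 and 36.4 CPM, against 20.3 to 38.9 CPM in DMSO (-0.22 ± 0.19). For Clock, DHPG had 24.2, 36.7 and 46.4 CPM, against 37.6 to 76.9 CPM in DMSO (-0.51 ± 0.25, -0.18 with the term), and for Cry2 61.2, 73.3 and 90.6 CPM, against 56.0 to 73.3 CPM (0.27 ± 0.14, 0.11 with the term). The groups overlapped for all of these genes, and with the set term the values of Nr1d1, Clock and Cry2 were closer to 0.

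The other members stayed within their spread under DHPG. Per1 had a log2 fold change of -0.17 ± 0.24, Per2 -0.21 ± 0.17, Per3 -0.39 ± 0.23, Cry1 -0.07 ± 0.14, Dbp -0.25 ± 0.27 and Arntl -0.25 ± 0.21, and all of their 95% intervals included 0. With the set term Per1 (0.19), Cry1 (0.04) and Arntl (0.08) turned positive, Per2 was at 0, Per3 at -0.18 and Dbp at -0.35. Per1 was 41.5 CPM in DHPG 6, the deep DHPG library, against 18.5 to 22.4 CPM in DHPG 1 to 5, and Per2 was 33.3 CPM there, against 16.7 to 24.1 CPM. DHPG 6 was also above DMSO 2 to 4, the deep DMSO libraries, which had 27.6 to 32.1 CPM of Per1 and 26.5 to 28.5 CPM of Per2. In the authors' deposited table no member passed with DHPG, where 1.48% of the features with an adjusted p did.

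Set directly against DHPG, forskolin gave 4 calls among the 10, with Nr1d2, Clock and Per3 higher and Cry2 lower. Of all features 30.8% passed, 16.3% higher and 14.4% lower, so 4 of 10 is near the background, and 45.2% had unadjusted p under 0.05, beside the same 4 members. Of the features that passed 53.1% were higher, and 70.1% were with library totals. DESeq2 called the same 4 members (37% of all features), and limma-voom called these and Dbp (33.7%). With the library-set term 3 members passed, without Per3, beside 23.3% of all features. Only Nr1d2 had groups that did not overlap, with all 6 FSK libraries above all 6 DHPG libraries, against 3.21% of all features higher and 4.03% lower in that sense.

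Nr1d2 had 37.1, 42.5 and 46.1 CPM (lowest, median, highest) in FSK, against 15.3, 23.7 and 36.4 CPM in DHPG, a log2 fold change of 0.80 ± 0.17 (edgeR adjusted p = 0.016). It was 0.77 with the library-set term (adjusted p = 0.019) and passed in all 16 fits that left out 1 library. Within the shallow libraries it was 0.82 and did not pass (edgeR adjusted p = 0.12). Within the deep ones it was 0.81, with DHPG 6 alone for DHPG. The margin was small for 1 library: DHPG 1 had 36.4 CPM beside 37.1 CPM in FSK 3. Clock averaged 64.8 ± 20.8 CPM in FSK and 36.5 ± 8.51 CPM in DHPG (SD, n = 6 each; log2 fold change 0.83 ± 0.22, edgeR adjusted p = 0.019; 0.61 with the term, adjusted p = 0.040). It missed the limit without DHPG 3 or FSK 5 (0.67 without FSK 5).

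Per3 averaged 22.0 ± 2.39 CPM in FSK and 14.6 ± 5.30 CPM in DHPG (0.59 ± 0.21, edgeR adjusted p = 0.043). The DHPG libraries split: DHPG 1 and DHPG 6 had 22.3 and 20.5 CPM, inside the FSK range of 19.4 to 25.4 CPM, and DHPG 2 to 5 had 10.5 to 12.6 CPM. The call was lost with the library-set term (0.50, adjusted p = 0.070) and in 9 of the 16 fits that left out 1 library: without DMSO 3, DHPG 2, 3, 4 or 5, or FSK 1, 3, 4 or 5. Cry2 averaged 58.2 ± 9.61 CPM in FSK and 75.4 ± 10.3 CPM in DHPG (-0.37 ± 0.12, edgeR adjusted p = 0.032; -0.29 with the term, adjusted p = 0.048), and was lost without DHPG 2, 3 or 5, or FSK 4 or 5. Per1, at 0.31 ± 0.21, passed in the fit without DHPG 6, at 0.53 (adjusted p = 0.034). Per2, Cry1, Nr1d1, Dbp and Arntl had log2 fold changes of -0.05 to 0.14 and did not pass.

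The shallow libraries held a pattern that followed treatment except in DHPG 1, described here after its values were seen and without a test. The part of treatment in it cannot be told apart. For Per2, Per3, Cry2, Dbp and Arntl, DHPG 1 stood near FSK 1 to 3 and outside the range of DHPG 2 to 5. For Per1, Cry1, Nr1d1 and Clock it lay within that range. Per3 was 22.5, 20.8 and 24.1 CPM in FSK 1 to 3 and 22.3 CPM in DHPG 1, against 12.6, 11.4, 10.6 and 10.5 CPM in DHPG 2 to 5 and 11.7 CPM in DMSO 1. Dbp was 27.3 to 30.8 CPM in FSK 1 to 3 and 34.6 CPM in DHPG 1, against 13 to 19.7 CPM in DHPG 2 to 5 and 18.2 CPM in DMSO 1. Arntl was low where these were high, at 15.9 to 17.8 CPM in FSK 1 to 3 and 16.4 CPM in DHPG 1, against 20.5 to 25.9 CPM in DHPG 2 to 5 and 23.5 CPM in DMSO 1. Low Arntl thus went with high Per3 and Dbp in 4 libraries of 2 treatments. Per2 was 21.2 to 23.4 CPM in FSK 1 to 3 and 24.1 CPM in DHPG 1. It was 16.7 to 20 CPM in DHPG 2 to 5 and 18.3 CPM in DMSO 1. Cry2 was lower in the 4 libraries, at 61 to 68.2 CPM in FSK 1 to 3 and 61.2 CPM in DHPG 1. It was 73 to 90.6 CPM in DHPG 2 to 5 and 73.3 CPM in DMSO 1.

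The same 4 libraries stood apart in cell markers. The 9 oligodendrocyte lineage markers summed to 872, 764 and 832 CPM in FSK 1 to 3 and 780 CPM in DHPG 1, against 509 to 616 CPM in DHPG 2 to 5 and 506 CPM in DMSO 1. The 8 excitatory neuron markers summed to 1170 to 1230 CPM in FSK 1 to 3 and 1180 CPM in DHPG 1, against 1360 to 1510 CPM in DHPG 2 to 5 and 1440 CPM in DMSO 1. Astrocyte markers summed to 3550 to 4180 CPM in the 4 libraries, against 2540 to 3150 CPM in the other shallow ones. Choroid plexus and ependyma markers summed to 38.8 to 63 CPM, against 66.8 to 105 CPM. The inhibitory neuron, microglial, endothelial, and fibroblast and mural lists overlapped between the 4 libraries and the rest. Every marker of the excitatory list was detected in all 16 libraries, and 1 oligodendrocyte marker was at 0 in each of DHPG 2 to 5. The part of these differences in the clock gene levels was not tested. Nr1d2 followed the split in part, at 46.1, 46.0 and 37.1 CPM in FSK 1 to 3 and 36.4 CPM in DHPG 1, against 15.3 to 24.1 CPM in DHPG 2 to 5 and 20.3 CPM in DMSO 1. Per1 was 22.9 to 28.8 CPM in FSK 1 to 3 and 21.8 CPM in DHPG 1, against 18.5 to 22.4 CPM in DHPG 2 to 5 and 18.8 CPM in DMSO 1.

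**Figure D4:**
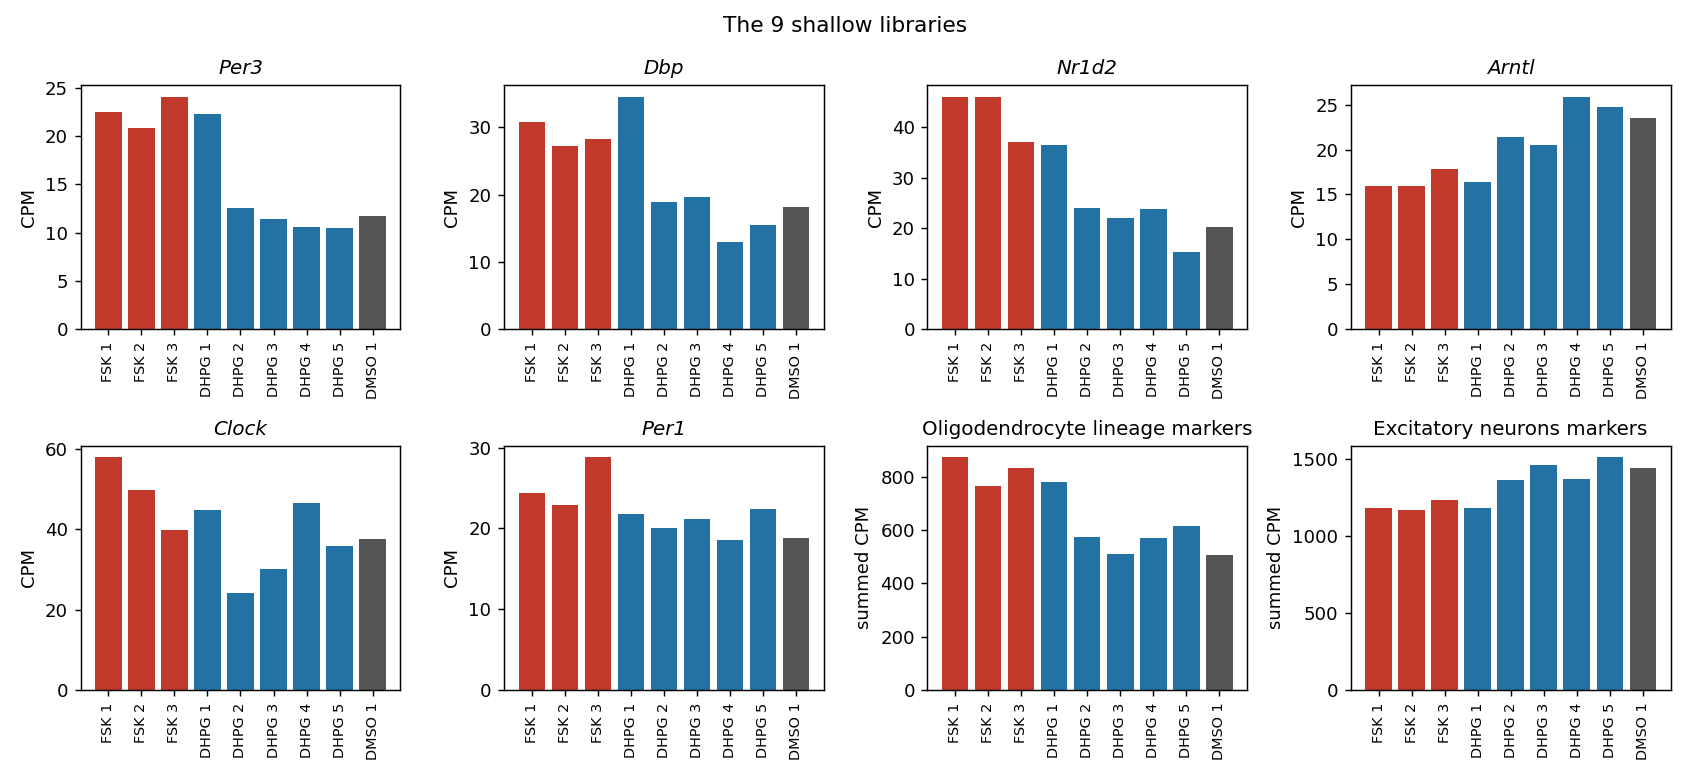
Levels in the 9 shallow libraries, FSK 1 to 3, DHPG 1 to 5 and DMSO 1, for 6 clock genes (CPM) and for 2 marker lists (summed CPM); bars start at 0 and each is a library. DHPG 1 stands with FSK 1 to 3 for Per3 (22.3 CPM), Dbp (34.6 CPM), Arntl (16.4 CPM) and both marker lists, and apart from DHPG 2 to 5.

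In the deep set the members did not follow that split. Arntl was 27.0 to 30.5 CPM in FSK 4 to 6 and 28.8 CPM in DHPG 6, against 26.1 to 31.1 CPM in DMSO 2 to 4, and Per3 was 19.4 to 25.4 CPM and 20.5 CPM, against 20.8 to 22.9 CPM. Dbp was 13.8 to 22.1 CPM in FSK 4 to 6 and 24.1 CPM in DHPG 6, against 21.6 to 30.1 CPM in DMSO 2 to 4. Nr1d2 stood at 39.1 to 43.6 CPM in FSK 4 to 6 and 23.5 CPM in DHPG 6, against 25.3 to 38.9 CPM in DMSO 2 to 4. It was the member whose FSK libraries lay above every other library of the set, by a small margin (39.1 CPM in FSK 5, 38.9 CPM in DMSO 4). For Nr1d1 and Per2 the FSK libraries lay below every other library of the set. The share of all features that separate in these ways within the deep set was not determined. With so few libraries these separations are descriptions only. Nr1d1 had 9.22 to 11.3 CPM in FSK 4 to 6, 13.6 CPM in DHPG 6 and 13 to 16.5 CPM in DMSO 2 to 4. Per2 had 22.2 to 24.1, 33.3 and 26.5 to 28.5 CPM in the same order. The microglial markers in this set summed to 152, 279 and 7.7 CPM in FSK 4 to 6, 9.38 CPM in DHPG 6 and 5.72 to 10.9 CPM in DMSO 2 to 4. The part of the microglial markers in the Nr1d2 levels was not tested.

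Beyond the 10, a list of 21 further clock genes was tested, and all 21 were measured. With forskolin against DMSO 0 passed in edgeR, 3 had unadjusted p under 0.05, Bhlhe40 and Nfil3 among them, and DESeq2 called 2, Bhlhe40 among them, and limma-voom 8. The shares of all features were 21.3% at unadjusted p under 0.05, 8.11% by DESeq2 and 35.2% by limma-voom. The median log2 fold change was -0.01, beside 0.02 for all features. Bhlhe40, which encodes the E-box repressor DEC1 and is itself known as an activity-responsive gene, averaged 44.9 ± 6.52 CPM in FSK and 29.3 ± 4.81 CPM in DMSO (SD, n = 6 and 4). All 6 FSK libraries stood above every DMSO library, as they did for 3.62% of all features. The log2 fold change of Bhlhe40 was 0.62 ± 0.19 (adjusted p = 0.10). With a term for the set Bhlhe40 passed (0.68, adjusted p = 0.036), as 9.45% of all features did. Nfil3, a repressor at D-boxes, had 12 ± 2.32 CPM in FSK and 8.68 ± 1.36 CPM in DMSO (0.47 ± 0.19, adjusted p = 0.17). It was 0.74 within the deep libraries (adjusted p = 0.035), where 2024 of 17173 features passed, and 0.05 within the shallow ones (adjusted p = 0.95).

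With DHPG against DMSO 0 of the 21 passed in edgeR, 6 had unadjusted p under 0.05, DESeq2 called 0 and limma-voom 11. The 3 of smallest p were Gsk3b, a kinase gene (-0.53 ± 0.19), Nfil3 (0.49 ± 0.19) and Bhlhe41, which encodes the repressor DEC2 (-0.82 ± 0.32), each with adjusted p = 0.40. With the set term Gsk3b was at -0.20, Nfil3 at 0.60 and Bhlhe41 at -0.17. The shares of all features were 12.4% at unadjusted p under 0.05, 0.0408% by DESeq2 and 34.7% by limma-voom. With forskolin against DHPG 4 of 21 passed, 3 higher and 1 lower, beside 30.8% of all features, and 9 passed without DHPG 6, beside 5496 of the 17173 features. Rora, which encodes a receptor that opposes the REV-ERBs at Arntl, was higher by 0.83 ± 0.22 (adjusted p = 0.018), and Csnk1d, a kinase that phosphorylates PER proteins, was lower (-0.22 ± 0.07, adjusted p = 0.029). Rora averaged 22.0 ± 6.53 CPM in FSK and 12.4 ± 3.02 CPM in DHPG, and Csnk1d 106 ± 6.68 CPM in FSK and 123 ± 6.70 CPM in DHPG (SD, n = 6 each). The call of Csnk1d was lost without DHPG 2, 3 or 5, or FSK 4 or 5.

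Some genes linked to cAMP and CREB were higher with forskolin in the same libraries, whose counts hold no measure of cAMP itself. Of 7 genes that link cAMP and CREB to transcription 3 passed with forskolin against DMSO, all higher: Fos, Nr4a1 and Sik1, beside 0.809% of all features. Sik1, a kinase known in the mouse suprachiasmatic nucleus as a brake on clock resetting by light, averaged 35.4 ± 14.1 CPM in FSK and 14.2 ± 2.16 CPM in DMSO (log2 fold change 1.32 ± 0.25, edgeR adjusted p = 0.025). Crem, whose inducible product is a repressor of CREB targets, had 8.90 ± 0.960 CPM in FSK and 6.18 ± 0.207 CPM in DMSO (0.53 ± 0.16, adjusted p = 0.096; 0.048 with the library-set term). Crtc1, a CREB coactivator gene, had 30.6 ± 3.04 CPM in FSK and 46.0 ± 2.71 CPM in DMSO (-0.59 ± 0.14, adjusted p = 0.065; 0.017 with the term). Creb1 (0.42 ± 0.20) and Crtc2 (-0.15 ± 0.33) did not pass. With DHPG against DMSO 0 of the 7 passed, and 3 had unadjusted p under 0.05, beside 12.4% of all features. Of these, Fos (1.16 ± 0.43, 1.83 with the term) and Nr4a1 (1.37 ± 0.39, 1.94 with the term) were higher. Crtc1 was lower (-0.36 ± 0.15, -0.18 with the term). With forskolin against DHPG 5 passed, all higher (30.8% of all features).

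The features whose log2 CPM ran most like a member's over the 16 libraries are given as a description, since all libraries share the 2 sets. Per1 ran most like Agbl5 (Pearson r = 0.958) and Npr2 (0.930), Per2 like 2310022B05Rik (0.921) and Slc9a3r1 (0.909), and Per3 like F3 (0.974) and Acss1 (0.961). Cry1 ran like Col6a3 (0.863) and Serpinf1 (0.826), and Cry2 like Ncaph2 (0.975). Nr1d1 ran like Cpne2 (0.938) and Slc20a2 (0.934), Nr1d2 like Ints8 (0.955) and Tmem263 (0.950), and Dbp like Abtb2 (0.939) and Fbxo2 (0.908). Arntl ran like Ttr (0.909), the transthyretin gene that marks choroid plexus, and Maml3 (0.895), and Clock like Nufip2 (0.978) and Rbm27 (0.974). No member was among the features most like another. The choroid plexus and ependyma markers, Ttr included, summed to 40.7 to 455 CPM in FSK, 38.8 to 128 CPM in DHPG and 105 to 360 CPM in DMSO, and their part in the Arntl level was not tested.

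Several members share RefSeq ranges with other genes on GRCm38.p6, where the counting may split or share reads. Besides Nr1d1 and Thra, Dbp (chr7:45705100-45710203) shares 741 bases with Sphk2, a sphingosine kinase gene, at 20.9 ± 3.62 CPM in FSK, 27.5 ± 3.60 CPM in DHPG and 25.9 ± 0.946 CPM in DMSO. Per3 (chr4:150997018-151044707) shares 4714 bases with Uts2, which had no counts in any library, and Per2, Cry2, Arntl and Clock overlap noncoding or pseudogene entries. Per1 (chr11:69095108-69109965), Cry1 (chr10:85131700-85185054) and Nr1d2 (chr14:18204056-18239106) overlap no other entry. The rest lie at chr1:91415977-91459351 (Per2), chr2:92403646-92434085 (Cry2), chr11:98767932-98775377 (Nr1d1), chr7:113178471-113314126 (Arntl) and chr5:76209868-76305603 (Clock).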

How the data were processed

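Per the labels' protocols, RNA was extracted with Trizol and chloroform and libraries were made with the TruSeq Stranded Total RNA kit. The deposited table holds estimated counts, made by the authors with Salmon against GRCm38 per the submitters' processing notes, with versions and annotation not given in the sources used here. Of its values 26.6% are not whole (tolerance 1e-09), and all were rounded. Control columns were matched to DMSO samples by number. The authors' deposited comparison tables hold log2 fold changes, p-values raw and adjusted, standard errors (a score) and a mean normalized signal, from DESeq per the submitters' processing notes; they correlated with the recomputed log2 fold changes at 0.984 (FSK) and 0.999 (DHPG). The miRNA files were not used.

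Features were kept by filterByExpr (minimum count 10), leaving 17173. The 16 libraries entered 1 edgeR 4.0.16 quasi-likelihood fit with robust estimation and TMM factors, with Benjamini-Hochberg adjustment over all features, and calls were made under 0.05. Where no tool is named an adjusted p comes from there, and ± after a log2 fold change gives the SE. Log2 CPM used a prior count of 2. The library set was deep above a total of 3e+07 counts. Alternatives used DESeq2 1.42.0, limma 3.58.1 (voom), other filters and scalings, a library-set term, a replicate block and leaving out libraries. The edgeR script was tested on simulated data. The closest pair of replicates, FSK 1 and FSK 2, differed by 5.85 times the sampling noise (chi-square per feature), so none was counted as a repeat. FSK 1 to 3 were the closest libraries to each other, at 5.85, 7.57 and 11.8, beside 16.3 for the next pair, DHPG 2 and DHPG 3. These values do not show whether libraries came from separate cultures. Promoter windows and gene ranges came from RefSeq, GRCm38.p6. All members, and the further clock genes and other genes by rule (those that passed, otherwise the 3 of smallest p), are named, except some that the rule selects and that are not reported here; these lists were chosen with earlier results of these data known.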

Additional observations from a re-analysis of the deposited data

Results flagged for a closer look

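Of 30 sets of member levels (10 genes in 3 groups), 2 held a library far from the others by Dixon's criterion, and chance alone gives about 1 in 20. Per1 was 41.5 CPM in DHPG 6, against 18.5 to 22.4 CPM in the other DHPG libraries; DHPG 6 is the deep library of that group. Cry1 was 14.8 CPM in FSK 4, against 9.94 to 11.1 CPM in the other FSK libraries; fibroblast and mural markers were also highest in FSK 4 (242 CPM), and their part was not tested.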

How the results depend on the processing

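Counts are given as FSK against DMSO, DHPG against DMSO and FSK against DHPG in this order. In the edgeR fit without a library-set term 0, 0 and 4 members, 0, 0 and 4 of the further clock genes and 139, 1 and 5283 of all features passed. DESeq2 gave 1, 0 and 4 members, 2, 0 and 5 further genes and 1285, 7 and 6356 features, and limma-voom 4, 6 and 5, 8, 11 and 7, and 6051, 5960 and 5783. With the set term there were 0, 0 and 3 members, 1, 0 and 4 further genes and 1622, 0 and 4007 features. Within the deep libraries there were 0, 0 and 1 (Per2), 1, 0 and 1, and 2024, 0 and 2594, and within the shallow ones 0, 0 and 0, 0, 0 and 0, and 8, 0 and 8. These fits rest on DHPG 6 alone for DHPG in the deep set and on DMSO 1 alone for DMSO in the shallow set, each assumed to vary like the other groups. Without FSK 4 and FSK 5, with the set term, 0, 0 and 1 (Nr1d2) members, 0, 0 and 1 further genes and 56, 0 and 1473 features passed. With library totals 2 members (Nr1d2 and Clock) passed for FSK against DHPG, and 62 and 2510 features for the FSK comparisons; without a filter these were 2, 66 and 2905. A minimum count of 50 left 0 features for DHPG against DMSO.

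Deviations of same-numbered libraries from their group means correlated at -0.41 to 0.39. The values were -0.41 to 0.02 for pairs from different library sets and -0.18 to 0.39 for pairs from the same set. The set was not removed from the deviations, so they cannot show whether the numbers pair the samples. With a replicate block 0, 0 and 2 members (Nr1d2 and Clock) and 531, 0 and 4172 features passed.

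Leaving out 1 library gave 0, 0 and 1 to 5 members, 0, 0 and 2 to 9 further genes, and 12 to 425, 0 to 5 and 1716 to 5811 features. For FSK against DMSO the feature count moved by over 1.5 times without any 1 of DMSO 1 to 4, DHPG 1, 2, 5 or 6, or FSK 1, 2, 4 or 5, and for FSK against DHPG without DHPG 2, 3 or 5, or FSK 4 or 5; of these, 2 members remained without DHPG 2 or 5 or FSK 4, and 1 without DHPG 3 or FSK 5.

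Of 110 member values under other settings for each comparison, 9, 16 and 12 changed sign, all of them not passing except Per2 within the deep libraries. For FSK against DMSO, limma-voom gave -0.20 for Per1 and 0.06 for Cry2. Within the shallow libraries Per2 was 0.30 and Dbp 0.66, and within the deep ones Per3 was -0.01, Cry1 0.03 and Arntl 0.03. Cry1 was 0 with library totals, and Per2 0.09 without FSK 4 and 5. For DHPG against DMSO, Per1 was 0.19, Cry1 0.04 and Arntl 0.08 with the set term. Within the deep libraries Per1 was 0.46, Per2 0.26 and Arntl 0.01. Within the shallow ones Per1 was 0.14, Per2 0.10, Per3 0.21, Cry1 0.06, Nr1d2 0.26 and Dbp 0.16. Per1 was 0.16, Per2 0.06 and Arntl 0.02 without FSK 4 and 5, and Cry1 0.02 with library totals. For FSK against DHPG, Per1 was -0.26, Per2 -0.53, Dbp -0.47 and Arntl 0.02 within the deep libraries, and Per2 was -0.04 with the set term. Cry1 was -0.02 with library totals, -0.07 with limma-voom, -0.05 with the set term, -0.11 within the shallow libraries and -0.10 without FSK 4 and 5. Nr1d1 was 0 with the block and Arntl 0.02 at a minimum count of 50. Leaving out 1 library gave, for FSK against DMSO, Per1 0 to 0.24, Cry1 -0.14 to 0 and Dbp -0.23 to 0.01, and for FSK against DHPG, Per2 -0.01 to 0.21, Cry1 -0.07 to 0.10, Nr1d1 -0.17 to 0.12 and Arntl -0.11 to 0.08. The cause of these moves was not tested.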
